A study of Mus musculus with 6 samples.

Results

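The 43 genes described here are the PPAR transcription factors with their partners and coactivators, the enzymes of mitochondrial and peroxisomal fatty acid oxidation, and the proteins that activate, carry and store fatty acids. They were picked by gene symbol from a list of pathway members, and all 43 were found among the 46517 genes counted. By place and role they divide into 6 regulators, 16 mitochondrial genes, 10 peroxisomal genes, 2 genes whose products work in both organelles, and 9 genes of fatty acid handling. Poly(A) RNA was sequenced from primary cultures of RTECs, the epithelial cells that line the kidney tubule, grown from kidneys of wild-type FvB mice. The labels give the mice as 4 to 6 weeks old. Cells were grown with 10% serum and 20 ng/ml EGF to 70% confluence and were then kept without serum for 24 h. The comparison is of 3 TGF-β1 cultures, which next received 50 ng/ml TGF-β1 over 24 h, with 3 CTL cultures of the same cells labelled as controls.

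Fatty acids are burned for energy after they are linked to coenzyme A by acyl-CoA synthetases and carried into mitochondria by the carnitine shuttle, where repeated rounds of beta-oxidation cut them down. Peroxisomes shorten very long and branched chains and pass the products on. PPARs are nuclear receptors that bind DNA together with RXR, and with coactivators such as PGC-1α they switch on genes of both pathways. The proximal tubule relies strongly on fatty acid oxidation, and TGF-β1 is a cytokine that drives kidney fibrosis.

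Counts on genes totalled 28313080 to 34183497 per culture. Both replicate 2 cultures stood apart from the others: 4 Y-linked genes summed to 142 to 151 CPM (counts scaled to a common library size after TMM normalization) there and to at most 0.172 CPM in the other 4 cultures, although the study's methods describe male mice. Xist, a transcript of female cells, was at 237 CPM in CTL and 207 CPM in TGF-β1 replicate 2. In the other 4 cultures it was at 516 to 634 CPM. Results without replicate 2 are therefore given as well. Of 15 proximal tubule markers, 10 were under 1 CPM in every culture, among them Slc34a1 and Slc5a2, the phosphate and glucose carriers that define the segment, while the endocytic receptor Lrp2 was at 62.5 to 74.2 CPM in CTL and 28.9 to 41.9 CPM in TGF-β1 cultures. The 15 markers together summed to 105 to 116 CPM in CTL and 44.7 to 62.6 CPM in TGF-β1 cultures, and 2 of the 6 tested passed the test, both lower (Lrp2 and Aqp1). The 8 fibroblast markers summed to 1517 to 2901 CPM in CTL and to 1794 to 3764 CPM in TGF-β1 cultures, with replicate 2 highest in each group, and none passed the test without the block. With the replicate number as a block in the fit, 4 proximal tubule markers were lower, and of the fibroblast markers Col1a1, Col1a2 and Postn were higher and Pdgfrb and Dcn lower. Markers of the thick limb and distal tubule, the collecting duct and the endothelium each summed to at most 6.02 CPM in any culture, and 7 leukocyte markers to 4.22 to 9.30 CPM, with Csf1r lower. Of the podocyte markers, the defining Nphs1 was under 1 CPM in every culture, while Synpo and Podxl brought the sum to 409 to 577 CPM in CTL and 325 to 381 CPM in TGF-β1 cultures and were both lower with the block only. The adipocyte markers Adipoq, Lep, Plin1, Fabp4 and Cfd were under 1 CPM in every culture, and Retn, the other of the 6, was at 0.336 to 1.57 CPM and did not pass the test. In these bulk samples fewer cells of a type and less RNA per cell cannot be told apart, and the part of the marker changes in the results below was not tested.

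Of the 42 members with enough counts for the test, 4 rose and 4 fell with TGF-β1 at an adjusted p under 0.05 (edgeR quasi-likelihood test, Benjamini-Hochberg over 15862 genes). Plin2, Acsl3, Acsl4 and Acadvl rose. Acsl1, Pparg, Acsl5 and Acadm fell. The 8 calls are 19.0% of the tested members, against 11.7% of all genes tested (5.00% higher and 6.69% lower). Scaling by library size alone, without TMM normalization, gave 3 higher and 5 lower members, and it turned the 793 higher and 1061 lower genes overall into 508 and 1467. Cultures of the same replicate number departed from their group means alike, although the study describes no pairing. With the replicate number as a block in the fit, 5 members were higher and 11 lower. That is 38.1% of those tested, against 34.2% of all genes (15.1% higher and 19.1% lower). The 8 calls made without the block were all kept with it, at adjusted p of at most 0.0123. Without both replicate 2 cultures and without the block, 4 members were higher and 5 lower, beside 14.9% of all genes (6.79% higher and 8.09% lower). Without both replicate 1 cultures no gene of the whole table passed edgeR's test, while 1938 genes and 7 members had an unadjusted p under 0.05. With the block, the fit without replicate 1 called 3 members higher and 5 lower, beside 1026 higher and 1649 lower genes overall.

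**Figure D1:**
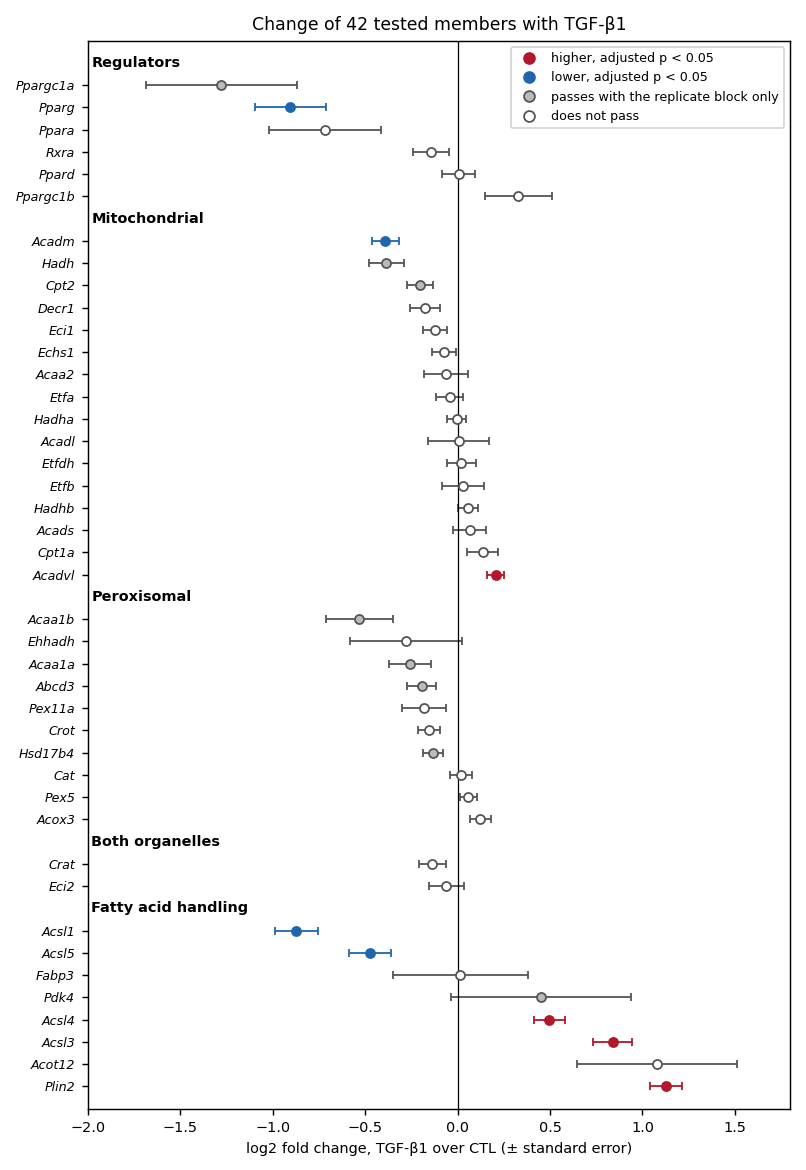
Log2 fold change of TGF-β1 over CTL for the 42 tested members (horizontal axis, points, with bars of 1 standard error; 3 cultures a group), grouped by role. The regulators and the fatty acid handling genes spread from -1.28 to 1.13. Within 0.2 of 0 lie 12 of the 16 mitochondrial points and 7 of the 10 peroxisomal points, beside 55.2% of all genes tested.

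The groups of members differed in how widely they moved. Mitochondrial genes had a median log2 fold change of -0.02, peroxisomal genes of -0.17, regulators of -0.43 and fatty acid handling genes of 0.47, and the median over all genes tested was -0.003. Scaling by library size only moved the median over all genes to -0.08. Leaving out single cultures moved the mitochondrial median between -0.07 (without TGF-β1 replicate 3) and -0.01 (without TGF-β1 replicate 1), the peroxisomal median between -0.23 (without TGF-β1 replicate 3) and -0.11 (without TGF-β1 replicate 2), and the fatty acid handling median between 0.33 (without CTL replicate 2) and 0.71 (without CTL replicate 3). The regulators' median was -0.18 without both replicate 2 cultures. The median size of the change, without its sign, was 0.07 for mitochondrial genes and 0.17 for peroxisomal genes, beside 0.17 over all genes. For regulators it was 0.52 and for fatty acid handling genes 0.67. Ppara and Ppargc1b among the regulators and Acot12 in fatty acid handling were under 1 CPM in every culture. The part of counting noise in these medians was not tested. The 2 tested genes of both organelles had a median of -0.10. Values of 6 members did not overlap between groups with TGF-β1 above CTL and those of 9 with TGF-β1 below, beside 17.2% and 18.0% of all genes, or 35.1% in either direction.

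Levels per kb of exon ran in CTL from 111 CPM per kb for Plin2, the coat protein of lipid droplets, to 0.0367 for Cd36. Lengths took in every annotated exon of a gene, which can exceed the transcripts made, so comparisons between genes are approximate. Acadl, which starts the oxidation of long chains, followed at 88.7 CPM per kb, and its CTL range overlapped that of Plin2. Cat, the catalase of peroxisomes, came next at 60.5 CPM per kb. Mitochondrial genes had a median of 16.7 and peroxisomal genes of 13.2 CPM per kb in CTL, while the regulators had a median of 1.14. In all, 9 members were above 20, 27 lay from 1 to 20 and 7 were under 1 CPM per kb, and the CTL ranges of neighbours in this order overlapped in 26 of 42 pairs. The 7 lowest were Fabp3, Ehhadh, Pparg, Ppara, Ppargc1b, Acot12 and Cd36.

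**Figure D2:**
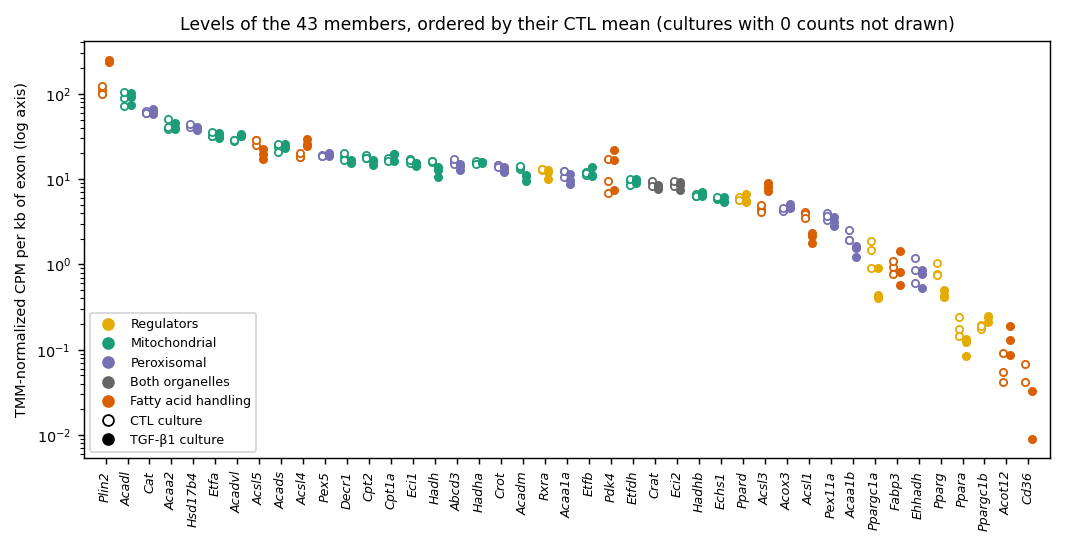
Level of each member in CPM per kb of exon (log axis), with 3 CTL cultures as open and 3 TGF-β1 cultures as filled points, ordered by the CTL mean and coloured by group. Plin2 stands highest in both groups, and Pparg, Ppara and Ppargc1b are at or below about 1 CPM per kb.

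Among the regulators, Pparg was the only one that passed the test without the block. Pparg (ENSMUSG00000000440.11, chromosome 6 from 115360951 to 115490399, plus strand of GRCm38) encodes the PPAR best known from fat cells. It was at 3.05, 2.28 and 2.20 CPM in CTL replicates 1, 2 and 3 and at 1.48, 1.24 and 1.30 CPM in TGF-β1 replicates 1, 2 and 3. Every TGF-β1 culture was below every CTL culture, all at low counts. The log2 fold change was -0.90 (standard error 0.19, edgeR adjusted p = 0.0343), and with the block adjusted p = 0.00377. Leaving out any 1 of the 6 cultures ended the call, with edgeR adjusted p from 0.0512 to 0.126, and with the block it was lost without replicate 1 (adjusted p = 0.0551).

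Ppargc1a, which encodes the coactivator PGC-1α, had the most negative log2 fold change among the regulators with and without the block. With all cultures it passed edgeR's test only with the block. It was at 9.67, 12.4 and 5.99 CPM in CTL and at 2.69, 6.05 and 2.88 CPM in TGF-β1 replicates 1, 2 and 3. Replicate 2 was highest in each group, and its TGF-β1 value lay just above the CTL value of replicate 3, so the groups overlapped, yet each TGF-β1 culture was below its own CTL culture. Without the block the log2 fold change was -1.28 (standard error 0.41, edgeR adjusted p = 0.101). With the block it was -1.29 (standard error 0.16, adjusted p = 0.000821). The blocked call held without replicate 1, 2 or 3 (adjusted p = 0.00358, 0.000444 and 7.25e-06), and without replicate 2 it passed also unblocked (adjusted p = 0.0188). Blocked fits without a replicate number keep few residual degrees of freedom, so their p-values rest largely on the spread estimated across genes.

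The other 4 regulators did not pass either test. Ppara, the PPAR that drives fatty acid oxidation in liver and kidney, was at 0.551 to 0.941 CPM in CTL and 0.327 to 0.513 CPM in TGF-β1 cultures, with a log2 fold change of -0.72 (standard error 0.30, edgeR adjusted p = 0.183). Its groups did not overlap, but 0.671 CPM in CTL replicate 1 is only 22 counts. Ppard, the broadly expressed PPAR, was at 42.3 to 46.0 CPM in CTL and 40.8 to 50.0 CPM in TGF-β1 cultures. Rxra, the receptor that PPARs pair with, was at 69.8 to 71.2 CPM in CTL and at 66.8, 54.6 and 70.9 CPM in TGF-β1 replicates 1, 2 and 3, so its lowest value was that of replicate 2. Ppargc1b, a coactivator related to PGC-1α, was at 0.702 to 0.789 CPM in CTL and 0.851 to 0.994 CPM in TGF-β1 cultures. Its log2 fold change was 0.33 (standard error 0.18, edgeR adjusted p = 0.334). Of the PPARs, Ppard was the most abundant per kb in CTL (5.86 CPM per kb), ahead of Pparg (0.850) and Ppara (0.188), and the CTL ranges of these 3 genes did not overlap.

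Mitochondrial genes moved little and in opposite directions. The acyl-CoA dehydrogenases carry out the first step of each round, each on its own chain length. Acadm (ENSMUSG00000062908.11, chromosome 3 from 153922357 to 153944632, minus strand), the medium-chain enzyme, was at 51.4, 55.1 and 55.9 CPM in CTL and 42.4, 37.7 and 43.7 CPM in TGF-β1 replicates 1, 2 and 3. All TGF-β1 values were below all CTL values, and the lowest was that of replicate 2. It fell by 0.39 on the log2 scale (standard error 0.07, edgeR adjusted p = 0.0237). The call was lost without any 1 CTL culture or without TGF-β1 replicate 1 (adjusted p from 0.0622 to 0.0834), and kept without TGF-β1 replicate 2 or 3 (0.0368 and 0.0414).

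Acadvl (ENSMUSG00000018574.13, chromosome 11 from 70010183 to 70015411, minus strand), the very-long-chain enzyme of the same step, was at 76.4, 74.5 and 77.5 CPM in CTL and 86.7, 91.5 and 85.2 CPM in TGF-β1 replicates 1, 2 and 3. The groups did not overlap, and the CTL values were within 3 CPM of each other. It rose by 0.21 on the log2 scale, a 1.15-fold change (standard error 0.05, edgeR adjusted p = 0.0404). This call was the least stable: it was lost without any 1 culture (adjusted p from 0.0747 to 0.162), with scaling by library size alone (0.104), without the count filter (0.0541), without replicate 2 (0.0771), and with the block without replicate 1 (0.110).

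The long-chain Acadl and short-chain Acads overlapped between groups, at 146 to 209 CPM in CTL against 150 to 204 CPM in TGF-β1 cultures for Acadl and at 47.0 to 58.5 against 52.8 to 58.7 CPM for Acads. Acadl followed the replicate number in each group, lowest in replicate 2 and highest in replicate 3. With all cultures, the medium-chain Acadm was thus called lower and the very-long-chain Acadvl higher, the latter with the least stable call. Acadl and Acads had log2 fold changes of 0.01 and 0.07.

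The later steps gave 1 further call with the block. Hadh, the short-chain hydroxyacyl-CoA dehydrogenase of the last oxidation in each round, was at 81.0, 78.5 and 82.1 CPM in CTL and 63.4, 53.1 and 68.5 CPM in TGF-β1 replicates 1, 2 and 3. The groups did not overlap, and every TGF-β1 culture was below its own CTL culture. The log2 fold change was -0.39 (standard error 0.09, edgeR adjusted p = 0.0505), just outside the threshold, and with the block adjusted p = 0.00213. It held with the block without replicate 1, 2 or 3 (adjusted p = 0.0218, 0.00145 and 4.57e-07), in fits with few residual degrees of freedom.

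The trifunctional protein, which carries out the later steps on long chains, passed neither test. Its alpha subunit Hadha was at 130 to 144 CPM in CTL and 134 to 140 CPM in TGF-β1 cultures. The beta subunit Hadhb was at 41.8 to 44.2 and 42.4 to 46.1 CPM. Echs1, the short-chain hydratase, had a log2 fold change of -0.07, Acaa2, the mitochondrial thiolase, of -0.06, Eci1, the isomerase for unsaturated chains, of -0.12 and Decr1, the dienoyl-CoA reductase, of -0.18. The electron carriers Etfa, Etfb and Etfdh, which hand electrons from the dehydrogenases to the respiratory chain, had values of -0.04, 0.03 and 0.02.

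The carnitine shuttle split in sign without passing the unblocked test. Cpt2, the carnitine palmitoyltransferase of the inner membrane, was at 45.6, 42.6 and 42.2 CPM in CTL and 38.7, 34.6 and 40.0 CPM in TGF-β1 replicates 1, 2 and 3. Its groups did not overlap, with a log2 fold change of -0.20 (standard error 0.07, edgeR adjusted p = 0.122, with the block 0.0264), and with the block it was lost without replicate 1 or 2 (0.208 and 0.0725). Cpt1a, the rate-limiting enzyme of the outer membrane, was at 129, 135 and 126 CPM in CTL and 151, 126 and 153 CPM in TGF-β1 replicates 1, 2 and 3. Replicates 1 and 3 were higher and replicate 2 was lower with TGF-β1. The log2 fold change was 0.14 (standard error 0.08, edgeR adjusted p = 0.346), but 0.25 without replicate 2, where it passed (adjusted p = 0.0226). In all, 12 of the 16 mitochondrial genes passed neither with nor without the block, with log2 fold changes from -0.18 to 0.14.

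None of the 10 peroxisomal genes passed the unblocked test, with the lowest adjusted p at 0.114, while 7 of the 10 had a negative log2 fold change. With the block 4 passed, all lower, beside 19.1% of all genes lower and 34.2% called in that fit. Acaa1a and Acaa1b encode the peroxisomal thiolases of the last step. Acaa1a was at 47.1, 55.4 and 55.6 CPM in CTL and 38.7, 50.1 and 43.3 CPM in TGF-β1 replicates 1, 2 and 3, with overlapping groups and each TGF-β1 culture below its own CTL culture. Its log2 fold change was -0.26 (standard error 0.11, edgeR adjusted p = 0.198, with the block 0.00827). Acaa1b was at 4.94, 3.80 and 3.82 CPM in CTL and 3.21, 2.39 and 3.08 CPM in TGF-β1 cultures, with no overlap and a log2 fold change of -0.53 (standard error 0.18, edgeR adjusted p = 0.114, with the block 0.0163). These genes are close copies, and reads that fit both were left out of the counts, so their separate levels are uncertain.

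Abcd3, a membrane transporter that brings acyl-CoA into peroxisomes, was at 106, 100.0 and 113 CPM in CTL and 94.1, 84.5 and 100.4 CPM in TGF-β1 replicates 1, 2 and 3. The groups overlapped by less than 1 CPM, and within each replicate number TGF-β1 was lower. The log2 fold change was -0.19 (standard error 0.08, edgeR adjusted p = 0.173, with the block 0.00912). Hsd17b4, the peroxisomal bifunctional enzyme for branched and very long chains, was at 148, 140 and 149 CPM in CTL and 131, 127 and 141 CPM in TGF-β1 cultures, with a log2 fold change of -0.13 (standard error 0.05, edgeR adjusted p = 0.174, with the block 0.0421). All 4 blocked calls were lost without replicate 1 (edgeR adjusted p = 0.0934 for Acaa1a, 0.155 for Acaa1b, 0.101 for Abcd3 and 0.361 for Hsd17b4), and Hsd17b4 also without replicate 2 (0.0507).

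The other 6 peroxisomal genes passed neither test. Crot, which makes medium-chain products exportable as carnitine esters, was at 75.9 to 80.3 CPM in CTL and 66.3 to 75.7 CPM in TGF-β1 cultures, which nearly met. Acox3, an oxidase of branched chains, was at 49.1 to 52.3 CPM in CTL and 52.9 to 58.4 CPM in TGF-β1 cultures, also without overlap but in the opposite direction (log2 fold change 0.12, edgeR adjusted p = 0.220). Ehhadh, the other bifunctional enzyme, was at 1.79 to 3.51 and 1.57 to 2.60 CPM, and Pex11a, a peroxisome division factor, at 10.6 to 12.7 and 9.09 to 11.6 CPM. Pex5, the import receptor for matrix proteins, and Cat, which breaks down the hydrogen peroxide made there, had log2 fold changes of 0.06 and 0.02. The genes of both organelles were Eci2, an isomerase, with -0.06, and Crat, the carnitine acetyltransferase, with -0.14, and counting them as peroxisomal gave a median of -0.15 over 12 genes.

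**Figure D3:**
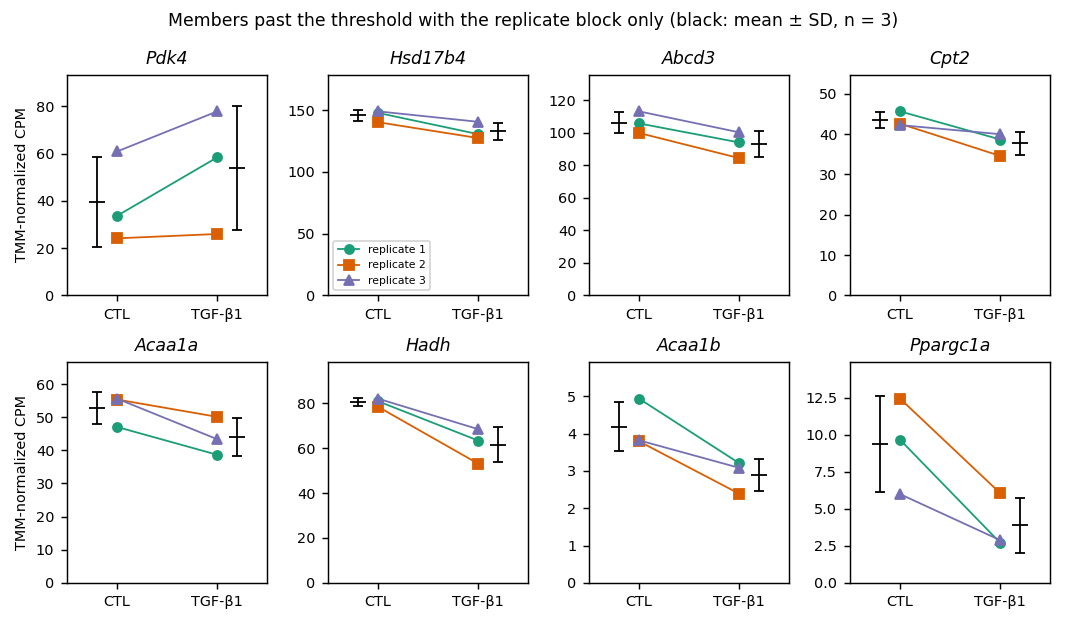
CPM in each culture (vertical axis from 0) of the 8 members that passed only with the replicate block, with lines joining CTL and TGF-β1 cultures of the same replicate number and the mean ± SD of 3 cultures in black. All 3 lines run downward for Ppargc1a, Hadh, Cpt2, Acaa1a, Acaa1b, Abcd3 and Hsd17b4 and upward for Pdk4, whose replicates differ more than its groups.

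Fatty acid handling held 5 of the 8 calls, which is 62.5% of its tested genes, against 11.7% of all genes tested. Members and lists were chosen with earlier results of these data known, so this share is no test of the list. Plin2 (ENSMUSG00000028494.11, chromosome 4 from 86648386 to 86670060, minus strand), the coat protein of lipid droplets, was at 389, 350 and 431 CPM in CTL and 882, 844 and 831 CPM in TGF-β1 replicates 1, 2 and 3. Every TGF-β1 culture was far above every CTL culture. It rose 2.18-fold, by 1.13 on the log2 scale (standard error 0.09, edgeR adjusted p = 0.00269), and was the only member called in each of the 6 fits without 1 culture (adjusted p from 0.00419 to 0.0317). Without both replicate 1 cultures the log2 fold change was 1.10 with adjusted p = 0.227, and with the block in that fit adjusted p = 0.000659. Plin1, the droplet coat protein of fat cells and 1 of the adipocyte markers, was under 1 CPM in every culture.

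The 4 long-chain acyl-CoA synthetases, which activate fatty acids by joining them to coenzyme A, split into pairs. Acsl3 (ENSMUSG00000032883.14, chromosome 1 from 78657825 to 78707743, plus strand), an enzyme of the endoplasmic reticulum and of forming lipid droplets, was at 19.6, 18.2 and 21.5 CPM in CTL and 35.7, 31.2 and 39.0 CPM in TGF-β1 replicates 1, 2 and 3. It rose 1.79-fold without overlap (log2 fold change 0.84, standard error 0.10, edgeR adjusted p = 0.00873). The call was lost without CTL replicate 1 or TGF-β1 replicate 1 (adjusted p = 0.0557 and 0.0510).

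Acsl4 (ENSMUSG00000031278.11, chromosome X from 142317993 to 142390535, minus strand) prefers arachidonic acid. It was at 99.3, 99.1 and 109 CPM in CTL and 133, 161 and 140 CPM in TGF-β1 replicates 1, 2 and 3. All TGF-β1 values were above all CTL values, with replicate 2 the highest. It rose 1.41-fold (log2 fold change 0.50, standard error 0.08, edgeR adjusted p = 0.0188). The call was kept without CTL replicate 3 or TGF-β1 replicate 2 (adjusted p = 0.0325 and 0.0283) and lost without any 1 of the other 4 cultures (0.0526 to 0.0981).

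Acsl1 (ENSMUSG00000018796.11, chromosome 8 from 46471037 to 46536051, plus strand) is the main synthetase of oxidative tissues and fat. It was at 43.3, 41.2 and 36.3 CPM in CTL and 22.9, 18.7 and 24.3 CPM in TGF-β1 replicates 1, 2 and 3. It was 1.83-fold lower without overlap (log2 fold change -0.87, standard error 0.12, edgeR adjusted p = 0.0104). The call was lost without CTL replicate 1 or TGF-β1 replicate 1 (adjusted p = 0.0575 and 0.0538).

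Acsl5 (ENSMUSG00000024981.5, chromosome 19 from 55251938 to 55297720, plus strand), found on mitochondria and the endoplasmic reticulum, was at 141, 121 and 141 CPM in CTL and 96.1, 84.4 and 110 CPM in TGF-β1 replicates 1, 2 and 3. Replicate 2 was lowest in each group, and the groups did not overlap. It was 1.39-fold lower (log2 fold change -0.47, standard error 0.11, edgeR adjusted p = 0.0453, with the block 0.000286). Without the block the call was kept only without TGF-β1 replicate 3 (adjusted p = 0.0402) and was lost without any 1 of the other 5 cultures (0.0505 to 0.170).

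**Figure D4:**
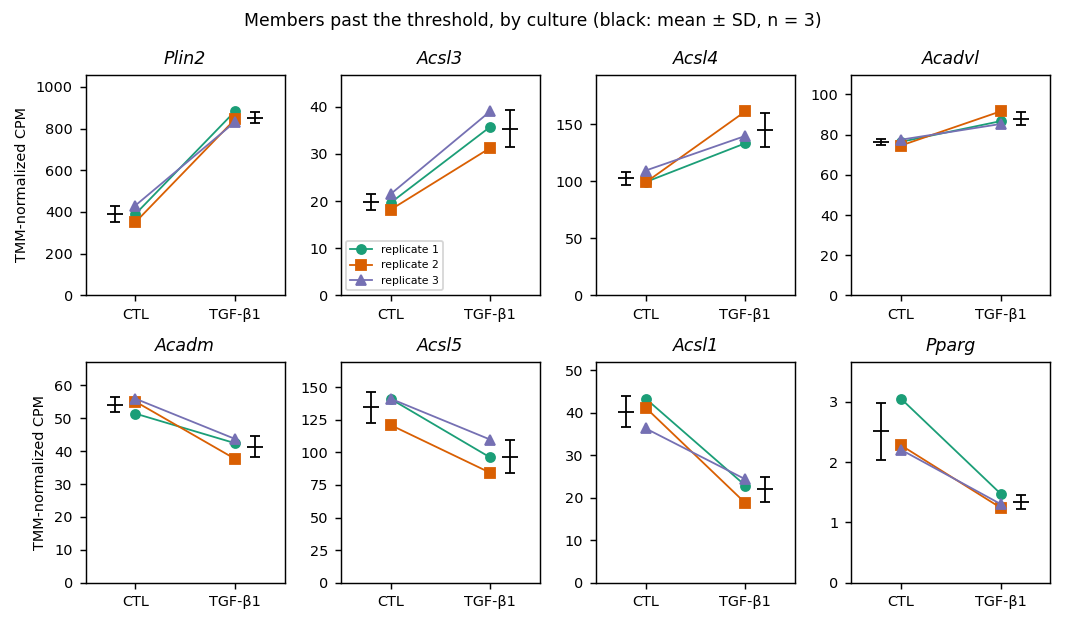
CPM in each culture (vertical axis from 0) of the 8 members that passed the test, with lines joining CTL and TGF-β1 cultures of the same replicate number and the mean ± SD of 3 cultures in black. Plin2, Acsl3, Acsl4 and Acadvl are higher and Acadm, Acsl5, Acsl1 and Pparg lower in every TGF-β1 culture than in any CTL culture.

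Per kb of exon, the 4 synthetase transcripts overlapped between groups in their sum and differed in their makeup. Their sum was 56.0, 51.3 and 57.7 CPM per kb in CTL and 54.8, 56.1 and 59.7 CPM per kb in TGF-β1 replicates 1, 2 and 3. Acsl3 and Acsl4 together made up 40.8%, 43.8% and 43.6% of that sum in CTL and 60.0%, 65.9% and 58.3% in TGF-β1 cultures. Acsl5 held the largest share in each CTL culture (48.5% to 51.8%) and Acsl4 in each TGF-β1 culture (43.3% to 53.1%). These shares restate the changes of the 4 genes, depend on the exon lengths used and were not tested.

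**Figure D5:**
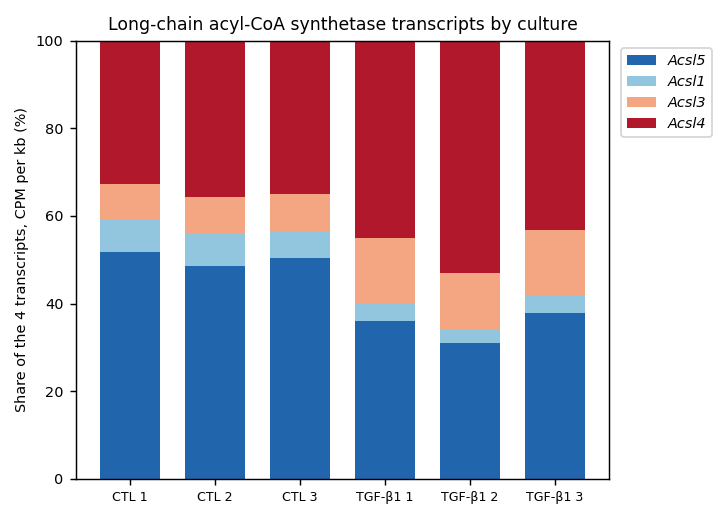
Share of each long-chain acyl-CoA synthetase in the summed CPM per kb of the 4 genes (vertical axis, percent), 1 bar for each culture. Acsl3 and Acsl4 (upper segments) cover 40.8% to 43.8% of the CTL bars and 58.3% to 65.9% of the TGF-β1 bars.

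To show the promoters of the called genes of lipid droplets and fatty acid activation, the 150 bases before the transcription start of Plin2 (chr4:86670060-86670209, minus strand), Acsl3 (chr1:78657675-78657824, plus strand), Acsl4 (chrX:142390536-142390685, minus strand), Acsl1 at its upstream and downstream starts (chr8:46470887-46471036, plus strand, and chr8:46490816-46490965, plus strand) and Acsl5 (chr19:55253219-55253368, plus strand) are printed from RefSeq on GRCm38.p6, 5′ to 3′ on the gene's strand. Capitals mark GTGGGAA, the core site of RBPJ, the DNA-binding factor of the Notch pathway that the study is about, and CCAAT, a common promoter box, each on either strand.
Plin2: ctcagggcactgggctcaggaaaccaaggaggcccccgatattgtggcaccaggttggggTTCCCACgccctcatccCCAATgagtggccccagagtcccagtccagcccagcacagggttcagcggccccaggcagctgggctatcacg
Acsl3: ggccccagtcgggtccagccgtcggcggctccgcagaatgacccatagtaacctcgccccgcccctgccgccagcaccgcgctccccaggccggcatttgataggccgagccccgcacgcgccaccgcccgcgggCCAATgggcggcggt
Acsl4: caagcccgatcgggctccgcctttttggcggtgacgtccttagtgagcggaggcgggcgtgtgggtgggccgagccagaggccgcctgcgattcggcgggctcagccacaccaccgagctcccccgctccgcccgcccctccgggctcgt
Acsl1 upstream start: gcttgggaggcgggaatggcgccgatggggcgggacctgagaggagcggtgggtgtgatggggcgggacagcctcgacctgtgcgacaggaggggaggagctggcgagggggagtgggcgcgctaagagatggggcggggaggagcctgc
Acsl1 downstream start: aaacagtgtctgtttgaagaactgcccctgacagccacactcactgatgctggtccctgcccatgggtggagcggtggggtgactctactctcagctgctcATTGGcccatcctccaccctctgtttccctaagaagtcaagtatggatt
Acsl5: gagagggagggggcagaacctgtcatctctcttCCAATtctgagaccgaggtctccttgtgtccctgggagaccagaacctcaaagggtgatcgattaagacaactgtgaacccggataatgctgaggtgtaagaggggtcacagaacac

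Plin2, which rose most, carried both motifs in this stretch, GTGGGAA on the opposite strand and CCAAT on its own. Acsl3 and Acsl5, which moved in opposite directions, each carried a CCAAT, and Acsl4 carried neither. Acsl1 carried a CCAAT on the opposite strand before its downstream start and neither motif before its upstream start. Windows from 250 bases before to 50 after the start were searched on both strands for 38 of the 43 members (45 promoters). Acaa2, Crat, Decr1, Hsd17b4 and Ppargc1b had no entry. GTGGGAA was found in Plin2, Pdk4 and Pparg, which is 6.67% of the 45 promoters, beside 6.38% of all 32851 promoters. CCAAT was found in 22 of the 45 (48.9%), beside 37.4% of all.

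The site to which PPAR and RXR bind together is a direct repeat of AGGTCA with 1 base between. Its full form was in no member promoter and in 0.0396% of all promoters. A looser form, AGGNNA and AGGNCA with 1 base between, was in Etfb, Echs1 and Acot12 and in 0.913% of all promoters. The matches are shown with 8 bases on each side, in capitals, from Etfb (chr7:43443922-43443950, plus strand), Echs1 (chr7:140116639-140116667, minus strand) and Acot12 (chr13:91741403-91741431, plus strand).
Etfb: cctaggaaTGCCCTTTCCCCTacttctgt
Echs1: gccatcacAGGGGAAAGGGCAcagccatg
Acot12: taggacccTGACCTCTCACCTcctaagca

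None of these 3 genes passed the test with or without the block. Etfb and Echs1 had log2 fold changes of 0.03 and -0.07. Acot12, an acetyl-CoA thioesterase, was at 0.305, 0.182 and 0.138 CPM in CTL and 0.289, 0.425 and 0.623 CPM in TGF-β1 replicates 1, 2 and 3, close to the floor of 3 counts (0.0878 to 0.106 CPM), with a log2 fold change of 1.08 (standard error 0.43, edgeR adjusted p = 0.166).

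Pdk4, the kinase that turns glucose oxidation down when fatty acids are burned and a known PPAR target, differed more between replicates than between groups. It was at 33.7, 24.2 and 60.9 CPM in CTL and 58.4, 26.0 and 77.9 CPM in TGF-β1 replicates 1, 2 and 3. Each TGF-β1 culture was above its own CTL culture, by 0.79, 0.10 and 0.35 on the log2 scale (with 0.5 CPM added to each value), and the groups overlapped. The log2 fold change was 0.45 (standard error 0.49, edgeR adjusted p = 0.598). With the block adjusted p = 0.0442, which was lost without replicate 1 or 3 (0.128 and 0.306).

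The remaining fatty acid carriers were scarce. Fabp3, a cytosolic fatty acid binding protein, was at 0.641 to 0.895 CPM in CTL and 0.474 to 1.18 CPM in TGF-β1 cultures. Cd36, a fatty acid transporter of the cell surface, had 5, 8 and 0 counts in CTL and 1, 0 and 4 counts in TGF-β1 replicates 1, 2 and 3, too few to be tested.

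Across these genes, replicate 2 was often the lowest and replicate 3 often the highest culture of both groups, while replicate 1 was seldom either. The same count over all genes was not made. Of the 42 tested members, replicate 2 was the lowest culture of both groups for 16 and the highest for 5, while replicate 3 was the highest of both for 13 and the lowest for 1. For replicate 1 the numbers were 3 highest and 2 lowest.

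Of 110 further genes of these pathways, 95 could be tested and 3 rose and 8 fell, which is 11.6%, near the 11.7% of all genes. With the block 11 were higher and 21 lower, which is 33.7% beside 34.2% of all genes. Of 19 other regulators tested, 4 passed (21.1%, beside 11.7% of all genes), 2 higher and 2 lower. Among them the corepressor Nrip1 rose (log2 fold change 0.64, edgeR adjusted p = 0.00254). It went from 117 to 124 CPM in CTL to 184 to 196 CPM in TGF-β1 cultures, without overlap. Esrrg, an orphan receptor that drives mitochondrial genes, fell by 1.83 on the log2 scale (adjusted p = 0.00812), from 1.49 to 1.64 CPM in CTL to 0.327 to 0.534 CPM. Prkaa2, a catalytic subunit of the energy sensor AMPK, fell by 0.53 (adjusted p = 0.0223).

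Of 16 other mitochondrial genes tested, 3 passed (18.8%), all lower, beside 6.69% of all genes lower. Oxct1, which uses ketone bodies, had a log2 fold change of -0.70 (edgeR adjusted p = 0.0418). Acadsb, the dehydrogenase of short branched chains, had -0.37 (adjusted p = 0.0321). Hsd17b10, a hydroxyacyl-CoA dehydrogenase, had -0.34 (adjusted p = 0.0178). Of 36 other peroxisomal genes tested, 2 passed, both lower, which is 5.56%, near the 6.69% of all genes. They were the isomerase Ech1 (-0.54, adjusted p = 0.0116) and the thiolase and sterol carrier Scp2 (-0.35, adjusted p = 0.0122).

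Of 24 other fatty acid handling genes tested, 2 passed, 1 higher and 1 lower, which is 8.33%, beside 11.7% of all genes. The higher was Fgf21, a fasting hormone and PPAR target. Fgf21 was at 0.946, 1.00 and 1.83 CPM in CTL and 5.04, 10.1 and 5.31 CPM in TGF-β1 replicates 1, 2 and 3. It rose by 2.44 on the log2 scale (standard error 0.40, edgeR adjusted p = 0.0173), and Pdk3, a relative of Pdk4, fell by 0.39 (adjusted p = 0.0184). Angptl4 and Mgll were singled out after their values were seen, because their large log2 fold changes passed only with the block. Angptl4, a secreted inhibitor of lipoprotein lipase and PPAR target, was at 70.8, 40.8 and 110 CPM in CTL and 224, 114 and 231 CPM in TGF-β1 replicates 1, 2 and 3 (log2 fold change 1.36, edgeR adjusted p = 0.0975, with the block 0.000408). Mgll, which splits monoglycerides, had a log2 fold change of 1.30 (adjusted p = 0.101, with the block 4.49e-06). Replicate 2 was lowest in each group for Angptl4 and highest for Mgll.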

How the data were processed

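The authors trimmed single-end reads with Trim Galore, aligned them to GRCm38 (mm10) with STAR 2.4.1d and counted reads per gene with HTSeq 0.6.1, per the labels' processing notes. The annotation release and the strand setting are not given in the sources used here, so reads of a gene and of an antisense partner cannot be told apart. The deposited values are read counts per gene, without normalization, 1 file for each of the 6 cultures. Reads on more than 1 place or gene were left out (18.7% to 19.4% and 1.88% to 1.97% of the records that HTSeq tallied). Those on no gene were left out too (4.16% to 4.93% of these records). The shares of reads were not computed. Symbols, positions and union exon lengths came from GENCODE M21, matched for 46005 of 46517 identifiers.

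Counts were tested with edgeR 4.0.16 in R 4.3.3 (filterByExpr by group, TMM, robust glmQLFit, two-sided glmQLFTest); p-values of 15862 genes were adjusted together by Benjamini-Hochberg, and 0.05 was the threshold. Groups and replicate numbers came from the labels, which do not say whether replicates came from separate animals, so p-values measure the spread between these cultures. Replicate numbers were not a term of the test, since the study describes no pairing. Cultures of the same number nonetheless departed from their group means alike. The departures correlated at 0.445, 0.738 and 0.648 for the same number and at -0.688 to 0.289 for different numbers. No source states pairs, and values with the number as a block are given beside the test. No pair of libraries agreed within sampling noise (chi-square per degree of freedom at least 9.71). The floor of 3 counts covers counting error only, since reads had no molecular identifiers.

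All members are named, with values by culture for those past the threshold with or without the block; of other pathway genes, up to 6 for each list that passed with a mean of at least 1 CPM. Not every gene under this rule is reported here. Members and lists were chosen with earlier results of these data known. Alternatives were DESeq2 1.42.0, voom of limma 3.58.1, a minimum of 10 counts per culture, a filter of 1 count only, scaling by library size only or by RLE, the block, a threshold of 0.01, and leaving out each culture or both cultures of 1 replicate number; the last of these with the block was added after seeing the data. The fits were tested on simulated data. The added fits with the block keep few residual degrees of freedom, so their p-values rest largely on the spread estimated across genes. Promoters came from RefSeq on GRCm38.p6. Figures were drawn with matplotlib 3.10.9 in Python 3.11.15.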

Additional observations from a re-analysis of the deposited data

How the results depend on the processing

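The 8 called members had the same sign in every alternative. DESeq2 kept all 8 and added Hadh and Ppargc1a, voom and RLE scaling added Hadh, and a minimum of 10 counts per culture changed no call. Library size only and a filter of 1 count each lost Acadvl and added Hadh. At a threshold of 0.01, 127 genes were higher and 192 lower, with 2 members higher and 0 lower and 1 other pathway gene lower. Library size only gave 508 higher genes and medians of -0.10 for mitochondrial and -0.24 for peroxisomal genes, and DESeq2 gave 5 other pathway genes higher. Library size only moved the median over all genes to -0.08, and the cause of the DESeq2 difference was not tested. The replicate block gave 2388 higher and 3037 lower genes, 11 members lower, and 11 other pathway genes higher and 21 lower. Among members it added 8 calls and changed no other call.

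Fits without a single culture gave from 109 to 516 genes higher and from 186 to 807 lower, from 1 to 3 members higher and from 0 to 4 lower, from 1 to 3 other pathway genes higher and from 0 to 7 lower, and a median for fatty acid handling from 0.33 to 0.71. Without both cultures of replicate 1, 0 genes were called in either direction. Without both of replicate 2, 5 other pathway genes were higher and the regulators' median was -0.18. Without both of replicate 3, 95 genes were higher and 190 lower, with 1 member and 1 other pathway gene in each direction. In the added fits with the block, leaving out replicate 1 gave 1649 lower genes and 7 other pathway genes higher. Leaving out replicate 2 gave 2288 higher and 2718 lower genes, 9 members lower, and 11 other pathway genes higher and 17 lower. Leaving out replicate 3 gave 2581 higher and 3254 lower genes, 16 members lower, and 11 other pathway genes higher and 24 lower.

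The sign of 13 uncalled members turned in 1 or more fits, none at an adjusted p under 0.367. With library size only the log2 fold change was -0.069 for Ppard, -0.065 for Acadl, -0.0077 for Acads, -0.016 for Hadhb, -0.046 for Etfb, -0.052 for Etfdh, -0.015 for Pex5, -0.055 for Cat and -0.062 for Fabp3. With voom it was -0.00079 for Ppard and -0.074 for Fabp3. Hadha was at 0.00071 with DESeq2 and 0.0022 with the filter of 1 count. Without replicate 1 the values were -0.00088 for Acadl, 0.00062 for Hadha and -0.0091 for Fabp3. Without replicate 2 they were -0.056 for Ppard, -0.0050 for Acadl, 0.045 for Hadha, -0.062 for Etfb, 0.0026 for Acaa2 and -0.41 for Fabp3. Without replicate 3, Cat was at -0.044. Without a single culture the ranges were -0.094 to 0.064 for Ppard, -0.12 to 0.14 for Acadl, -0.015 to 0.14 for Acads, -0.042 to 0.031 for Hadha, -0.097 to 0.0069 for Etfa, -0.096 to 0.099 for Etfb, -0.041 to 0.077 for Etfdh, -0.14 to 0.069 for Acaa2, -0.035 to 0.058 for Cat, -0.14 to 0.014 for Eci2 and -0.42 to 0.28 for Fabp3.

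Depth limits the members of few counts: Ppara, Ppargc1b, Fabp3, Acot12 and Cd36 lay near or under 1 CPM, where 3 counts are 0.0878 to 0.106 CPM.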
